A study of Homo sapiens with 14 samples.

Results

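Arsenic handling in BEAS-2B cells was followed through 10 genes that act in the uptake, reduction, methylation, conjugation and export of arsenic, namely AQP3, AQP9, PNP, GSTO1, GSTO2, AS3MT, N6AMT1, GSTP1, ABCC1 and ABCC4. They were taken by name, out of 20033 protein-coding genes, and every KLF4 ChIP-seq peak was collected whose summit lay from 10 kb upstream of the gene start to 2 kb past the gene end. BEAS-2B is an established line of human bronchial epithelial cells. The 4 KLF4 libraries analysed here, out of 14 samples, came from WT cells without treatment (WT control), WT cells given 1 µM As3+ for 6 h (WT As3+), Nrf2 KO cells without treatment (Nrf2 KO control) and Nrf2 KO cells given the same dose for the same time (Nrf2 KO As3+). The knockout had been made in this line with CRISPR-Cas9 guides against exon 2 of the Nrf2 gene, and colonies with no Nrf2 protein on a blot were used. Whether the KO libraries came from 1 colony is not given in the sources used here. Each condition has 1 library, so no difference between conditions has a replicate check, and all comparisons are descriptions with no p-value.

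Trivalent arsenic enters cells largely through aquaglyceroporins, the water channels that also let glycerol pass. Inside the cell it binds glutathione, receives methyl groups from S-adenosylmethionine through AS3MT, and leaves as glutathione conjugates or methylated species through ABC transporters. Several of these genes, GSTP1 and ABCC1 among them, are known Nrf2 targets that carry antioxidant response elements (ARE). KLF4 is a zinc finger factor that binds GC-rich CACCC elements.

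On the assembled chromosomes of GRCh38/hg38 the peak lists differed widely in length, with 751 (WT control), 29870 (WT As3+), 76545 (Nrf2 KO control) and 130 (Nrf2 KO As3+) peaks. Fold enrichment is the authors' value for the summit, taken over the background around it, and the number of fragments over a summit was worked out from the fold and p of each peak. The 2 short lists had the higher backgrounds, with a lowest value of 1.90 fragments in the WT control and 1.64 in the Nrf2 KO As3+ library, against 0.757 and 0.491 in the WT As3+ and Nrf2 KO control libraries. No listed summit had fewer than 10 fragments in either short list, while the lowest was 5 in the WT As3+ and 4 in the Nrf2 KO control list. A gene without a peak in a short list may therefore carry a weaker signal, and the part of list length and background in the differences below was not tested. Condition and genotype were taken from the labels, and neither can be checked in lists of KLF4 peaks, so every Nrf2 KO value rests on the labels of these libraries.

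Arsenic-treated WT cells had a KLF4 peak at 7 of the 10 genes and untreated Nrf2 KO cells at 9, whereas untreated WT cells had a peak only at ABCC1 and arsenic-treated Nrf2 KO cells at none of the 10. The WT As3+ genes were AQP3, PNP, GSTO1, N6AMT1, GSTP1, ABCC1 and ABCC4. The Nrf2 KO control library added AS3MT and GSTO2, so the arsenic methyltransferase itself had a peak only in that library. AQP9 was the 1 gene with no peak in any list. Among all protein-coding genes the share with a peak in the same window was 2.51% for WT control, 66.5% for WT As3+, 81% for Nrf2 KO control and 0.439% for Nrf2 KO As3+. The shares of the arsenic genes, 70% and 90% in the 2 long lists, lay near these values.

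**Figure D1:**
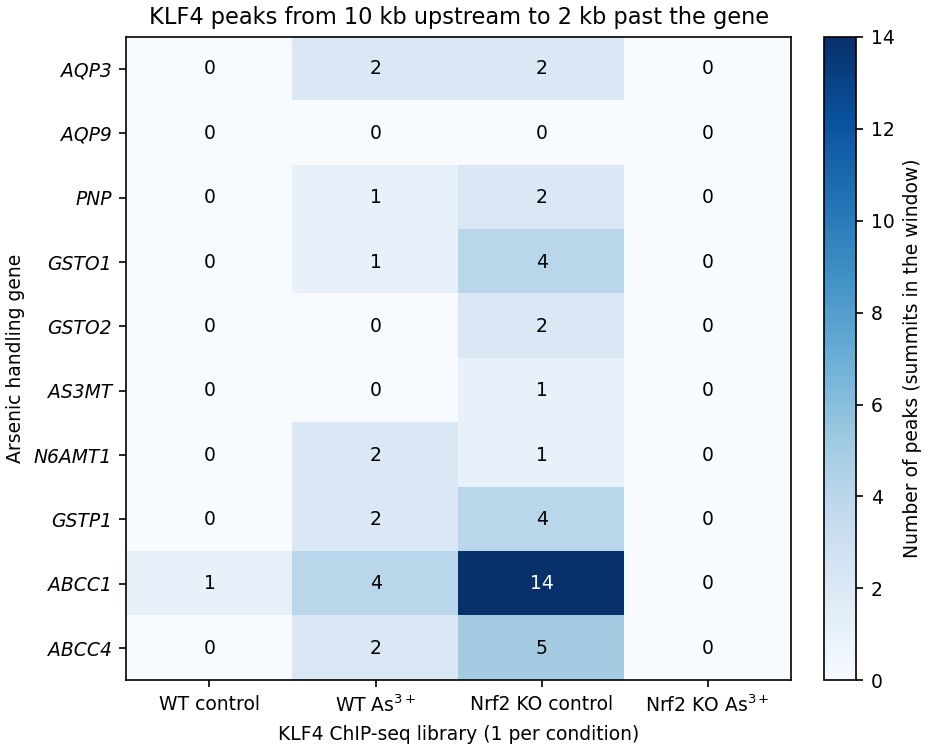
Number of KLF4 peaks (colour and digits) with a summit from 10 kb upstream to 2 kb past each of the 10 genes (rows), in each of the 4 libraries (columns, 1 library per condition). Counts rise to 14 at ABCC1 in the Nrf2 KO control library, the Nrf2 KO As3+ column is 0 throughout, and AQP9 is 0 in every column.

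In WT cells, 6 genes had a peak after As3+ and none before, with a background of 64%, and ABCC1 had peaks in both. All 7 WT As3+ genes lacked a Nrf2 KO As3+ peak. Of all protein-coding genes, 66.1% had a WT As3+ peak and no Nrf2 KO As3+ peak, and only 0.439% had any Nrf2 KO As3+ peak. In Nrf2 KO cells the contrast ran the other way, since 9 genes had a peak without As3+ and none with it, where the background was 80.6%. Without treatment, 8 of the 10 genes had a peak in Nrf2 KO and none in WT cells, with a background of 78.5%. Each of the 7 genes with a WT As3+ peak had a Nrf2 KO control peak too, a pattern that 64% of all genes showed, and AS3MT and GSTO2 belonged to the 17% with a Nrf2 KO control peak and no WT As3+ peak. With only peaks of −log10 q of at least 5, there were 5 genes in the WT As3+ list (background 38.2%) and 6 in the Nrf2 KO control list (background 51%). GSTP1 and ABCC1 were in both, beside 29.7% of all genes. At ABCC1 the peaks that passed were at different sites, in intron 5 in WT As3+ and in intron 14 in Nrf2 KO control. Each list also had a peak at the other site, just under the threshold. Their −log10 q was 4.92 in intron 5 in Nrf2 KO control and 4.71 in intron 14 in WT As3+. ABCC1 was also the 1 gene of the WT control list at this threshold (background 1.48%). When the Nrf2 KO control list was cut to its 29870 strongest peaks, the length of the WT As3+ list, 9 genes still had a peak, beside 65.3% of all protein-coding genes.

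Within 2 kb of the start of the canonical transcript (TSS), the WT As3+ library had a peak at AQP3, GSTO1, N6AMT1, GSTP1 and ABCC4, which is 5 of 10 beside 52.5% of all protein-coding genes. In untreated Nrf2 KO cells 9 of 10 had one, beside 67.5%. The 4 promoters that it added were those of PNP, GSTO2, AS3MT and ABCC1, and 18.6% of all protein-coding genes had a peak at the TSS in that library and not in WT As3+. The count of 5 against 9 was not kept with −log10 q of at least 5, where both libraries had 4 promoters with a peak, beside 28.6% (WT As3+) and 38.5% (Nrf2 KO control) of all genes. Those were N6AMT1, GSTP1, ABCC4 and AQP3 in WT As3+, and AS3MT, GSTO1, GSTP1 and PNP in Nrf2 KO control. Neither the WT control nor the Nrf2 KO As3+ library had a peak within 2 kb of any of the 10 starts, with backgrounds of 0.794% and 0.195%. The 5 WT As3+ promoters were therefore without a peak in WT control and in Nrf2 KO As3+ cells. Of all genes, 51.8% had a WT As3+ peak at the TSS and none in WT control. A WT As3+ peak at the TSS and none in Nrf2 KO As3+ was found at 52.4%. All 5 WT As3+ promoters also had a Nrf2 KO control peak, and 48.9% of all genes had a peak at the TSS in both libraries. The 9 Nrf2 KO control promoters had none in Nrf2 KO As3+ and none in WT control cells, with backgrounds of 67.4% and 66.8%.

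**Figure D2:**
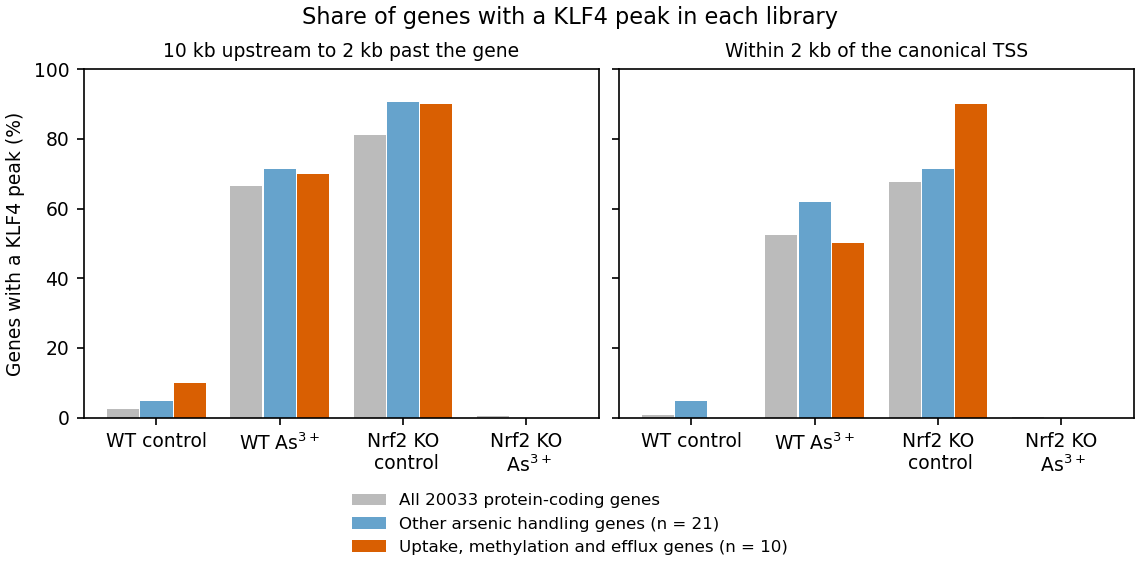
Percent of genes with a KLF4 peak in each library, in the whole gene window (left) and within 2 kb of the TSS (right), for the 10 genes, 21 other arsenic handling genes and all 20033 protein-coding genes. Bars for the 10 genes stand at 70% and 90% in the WT As3+ and Nrf2 KO control libraries on the left, and at 50% and 90% on the right.

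Among the uptake channels, AQP3, the aquaglyceroporin of airway and skin epithelium, had peaks in both long lists. The gene occupies 33441156 to 33447596 of chromosome 9, minus strand. The WT As3+ promoter peak, from 33447492 to 33447896, had its summit 152 bp upstream of the TSS with 14 fragments and a fold enrichment of 5.13. An overlapping Nrf2 KO control peak, from 33447373 to 33447902, was found with a summit in coding exon 1, 123 bp downstream of the TSS, 11 fragments and a fold enrichment of 5.06. The 2 folds are close, and the Poisson intervals of the fragments, 7.65 to 23.5 and 5.49 to 19.7, overlap. The backgrounds were 1.93 and 1.37, and the intervals cover counting error only, with no scaling for depth. A second WT As3+ peak lay in intron 3 with 8 fragments and a fold of 4.10, and a second Nrf2 KO control peak upstream, at -4019 bp from the TSS, with 6 fragments and a fold of 4.57. The letters under the 2 WT As3+ summits are shown because they are the only searched words found at AQP3 in the 200 bp centred on a summit. They are a GC box at the promoter and an AP-1 word in intron 3, in capitals, at chr9:33447698-33447726 and chr9:33443190-33443218, both on the plus strand.
AQP3 promoter GC box: gccccctcgcCCCCGCCCCacctcggctg
AQP3 intron 3 AP-1 word: gcgtgaatgagTGAGTCAtgagcccgggg

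AQP9, the aquaglyceroporin best known from liver, had 0 peaks in its window of 59743 bp on chromosome 15 in each library. The nearest summit to its TSS was 50040 bp away in the Nrf2 KO control, 208155 bp in the WT As3+ and 331770 bp in the WT control library. AQP9 also had the lowest GC content of the 10 promoters, 40.2% in the 1 kb centred on the TSS, and the lowest ratio of observed to expected CpG, 0.223.

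PNP, purine nucleoside phosphorylase, can reduce arsenate to arsenite in the presence of a thiol. The gene occupies 20461992 to 20477094 of chromosome 14, plus strand, and its canonical TSS is at 20469406. In untreated Nrf2 KO cells a peak stood in intron 1 from 20469491 to 20469835, with its summit 240 bp downstream of that start, 14 fragments and a fold enrichment of 6.32. No WT As3+ peak lay there. The 1 WT As3+ peak in the PNP window, with 13 fragments and a fold of 3.79, lay 57 bp from the TSS of the neighbouring gene PIP4P1 and 7915 bp upstream of that of PNP, and a Nrf2 KO control peak with a fold of 6.12 overlapped it. Without this peak at PIP4P1, PNP would have no peak in the WT As3+ library. Under the intron 1 summit stood the ARE core TGACNNNGC, at chr14:20469682-20469710 on the minus strand, with the core in capitals.
PNP intron 1 ARE core: ggctgccgcaTGACTCTGCcgccttgctc

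GSTO1 and GSTO2, the omega-class glutathione transferases that reduce methylated arsenic species, are neighbours on chromosome 10. GSTO1 runs from 104235356 to 104267459 and GSTO2 from 104268873 to 104304950, both on the plus strand, and their windows overlap. Both long lists had a peak in intron 1 of GSTO1, close to the canonical TSS. The WT As3+ peak (104255025 to 104255333) had its summit at 268 bp, with 11 fragments and a fold of 4.72. That of untreated Nrf2 KO cells (104254728 to 104255442) had its summit at 180 bp, with 16 fragments and a fold of 8.30, which ranked 1667 of 76545 by fold in its list and was the highest fold of any peak at the 10 genes. The Poisson intervals of these fragments were 5.49 to 19.7 and 9.15 to 26.0, on backgrounds of 1.54 and 1.05, and they overlap. They cover counting error only, with no scaling for depth, so their overlap does not compare the 2 folds.

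GSTO2 had peaks only in the Nrf2 KO control library. Its promoter peak, from 104268609 to 104269369, had 11 fragments and a fold of 4.80 with the summit 90 bp upstream of the TSS, and also falls within 2 kb of the end of GSTO1. A stronger peak, with 12 fragments and a fold of 6.50, lay in the 5′-UTR part of exon 2, 5675 bp downstream of the TSS. The nearest WT As3+ summit to the GSTO2 TSS was the GSTO1 promoter peak, 14024 bp upstream. The remaining 2 Nrf2 KO control peaks in the GSTO1 window lay 118 and 494 bp from the TSS of CFAP43, a cilia and flagella associated gene, at -22646 and -22034 bp from the canonical GSTO1 TSS.

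AS3MT, the methyltransferase that makes mono- and dimethylated arsenic, occupies 102869470 to 102901899 of chromosome 10, plus strand. It had 1 peak, in the Nrf2 KO control library, from 102869745 to 102870163 in intron 2 of the canonical transcript, with the summit 545 bp downstream of the TSS. With 14 fragments on a background of 1.02 and a fold of 7.41, it ranked 3567 of 76545, within the upper 4.66% of that list. In WT As3+ cells the nearest summit to the TSS was 49240 bp away. An ARE core with its centre 2 bp from the Nrf2 KO control summit, at chr10:102869999-102870027 on the plus strand, and another at chr10:102870064-102870092 on the minus strand, 63 bp from the summit, are shown as the only searched words there.
AS3MT ARE core near the summit: gtggaggtggTGACGGAGCcctcgcgctg
AS3MT ARE core downstream: gtagtaggtcTGACCCAGCgtcccacagt

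N6AMT1, a methyltransferase that can also methylate monomethylated arsenic, had its peaks at the promoter. The gene occupies 28872191 to 28885371 of chromosome 21, minus strand. The stronger of 2 WT As3+ peaks, from 28885158 to 28885436, had its summit in coding exon 1, 104 bp downstream of the TSS, with 18 fragments on a background of 2.70 and a fold of 5.14. It was overlapped by a Nrf2 KO control peak, from 28885167 to 28885552, with 12 fragments on a background of 1.75 and a fold of 4.73. N6AMT1 was thus 1 gene where the WT As3+ library had more peaks than the Nrf2 KO control library, 2 against 1. Its second WT As3+ peak, 644 bp upstream with 8 fragments and a fold of 3.98, was weak for its list, at rank 23689 of 29870, and held the AP-1 word at chr21:28886064-28886092 on the plus strand.
N6AMT1 upstream AP-1 word: tgcattcttttTGAGTCAatttctgaaat

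GSTP1, the pi-class glutathione transferase that conjugates glutathione to electrophiles, had the highest fold of the 10 genes in the WT As3+ library. The gene occupies 67583742 to 67586656 of chromosome 11, plus strand. The WT As3+ peak from 67583447 to 67584276, 830 bp wide, had its summit 49 bp upstream of the TSS with 17 fragments on a background of 1.73, a fold of 6.59 and rank 3666 of 29870. A weaker peak with 7 fragments and a fold of 4.08 followed in coding exon 3. In the Nrf2 KO control library 1 peak of 1069 bp, from 67583483 to 67584551, covered the same promoter and overlapped both, with 13 fragments on a background of 0.699, a fold of 8.24 and rank 1723 of 76545. Its summit lay in intron 2, 484 bp downstream of the TSS. Its further peaks stood in intron 5 with a fold of 5.22, in exon 7, in its 3′-UTR, at a fold of 3.72, and 4127 bp upstream with a fold of 4.00.

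The GSTP1 promoter holds the ARE core and the AP-1 word as overlapping letters, TGACTCAGC, with the centre of the core 62 bp upstream of the TSS and 13 bp from the WT As3+ summit. This word also falls inside the Nrf2 KO control peak, whose summit lay farther downstream, 36 bp from the centre of a GC box. Both are shown, at chr11:67583736-67583764 and chr11:67584318-67584346 on the plus strand, because the 2 libraries placed their summits over different words within 1 promoter.
GSTP1 promoter ARE core: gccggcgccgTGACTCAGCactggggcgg
GSTP1 GC box: catgcctgctCCCCGCCCCagtgttgtgt

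**Figure D3:**
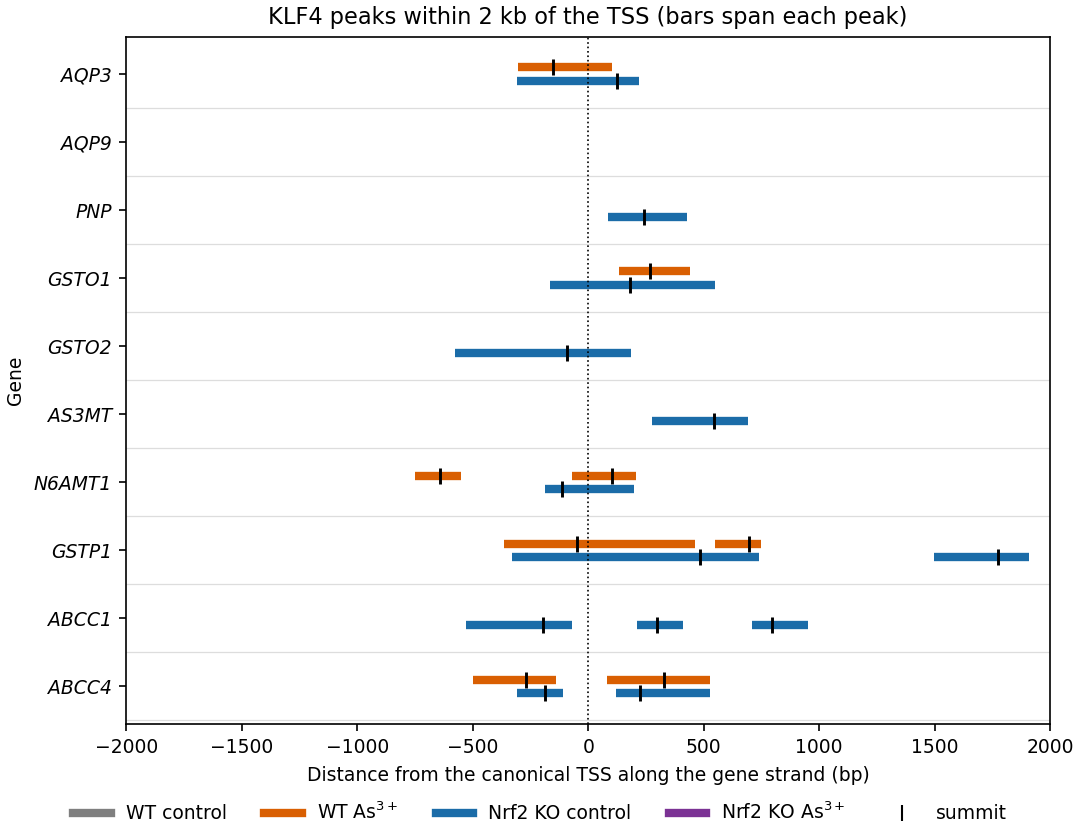
KLF4 peaks (bars) and their summits (black ticks) within 2 kb of the canonical TSS of each gene, by distance along the gene strand in bp, with 1 colour per library. WT As3+ and Nrf2 KO control bars overlap at AQP3, GSTO1, N6AMT1, GSTP1 and ABCC4, and the bars at PNP, GSTO2, AS3MT and ABCC1 are from the Nrf2 KO control library.

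ABCC1, the multidrug resistance protein that exports glutathione conjugates, was the gene with the most peaks and the only one with a peak in untreated WT cells. The gene occupies 15949138 to 16143257 of chromosome 16, plus strand, and its window, 206120 bp, is among the longest of the 10. It had 1 WT control peak, 4 of WT As3+, 14 of Nrf2 KO control and 0 of Nrf2 KO As3+. The WT control peak (16074436 to 16074674) lay deep in the gene, in intron 14, and its summit was 124942 bp past the TSS. At this site the WT control library had 29 fragments (95% Poisson interval 19.4 to 41.6) on a background of 6.78, a fold of 3.86. The WT As3+ library had 15 fragments (8.40 to 24.7) on 2.50, a fold of 4.57. Untreated Nrf2 KO cells had 13 fragments (6.92 to 22.2) on 1.62, a fold of 5.34. These backgrounds were above the medians of the whole lists, 4.84, 1.35 and 0.717 in the same order. By fold the WT control peak was weak for its list, at rank 524 of 751. All 3 peaks overlap, and none of the searched words occurs in any of the 3 peak intervals. The nearest Nrf2 KO As3+ peak to the ABCC1 TSS was 30436.8 kb away.

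A second ABCC1 site was shared by the long lists, in intron 5, where the WT As3+ summit was 72588 bp and the Nrf2 KO control summit 72621 bp from the TSS. The WT As3+ peak, from 16022084 to 16022402, had 19 fragments on a background of 2.50 and a fold of 5.71, the highest WT As3+ fold in the gene. Its Nrf2 KO control counterpart, from 16022043 to 16022431, had 12 fragments and a fold of 5.20. This was the only site at the 10 genes where a KLF word, AP-1 words and an ARE core stood together under a summit. The ARE core has the same letters as that of the GSTP1 promoter, TGACTCAGC, and its centre was 8 bp from the WT As3+ summit and 25 bp from the Nrf2 KO control summit. The KLF word and the core are shown as read on the minus strand, at chr16:16022150-16022179 and chr16:16022198-16022226.
ABCC1 intron 5 KLF word: ccagctcccacCCACGCCCtgcctgacctg
ABCC1 intron 5 ARE core: gccgactcagTGACTCAGCacgaagtggc

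The other ABCC1 peaks differed between the libraries. In WT As3+ cells they lay in intron 1, at 17443 bp with a fold of 5.05 over an AP-1 word and at 51683 bp with a fold of 3.44. In the Nrf2 KO control library 3 peaks surrounded the TSS, at 194 bp upstream with a fold of 5.34, and at 297 and 797 bp downstream with folds of 3.43 and 4.00. The remaining 9 had 5 to 10 fragments over the summit and folds from 3.29 to 5.53, the highest in intron 19.

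**Figure D4:**
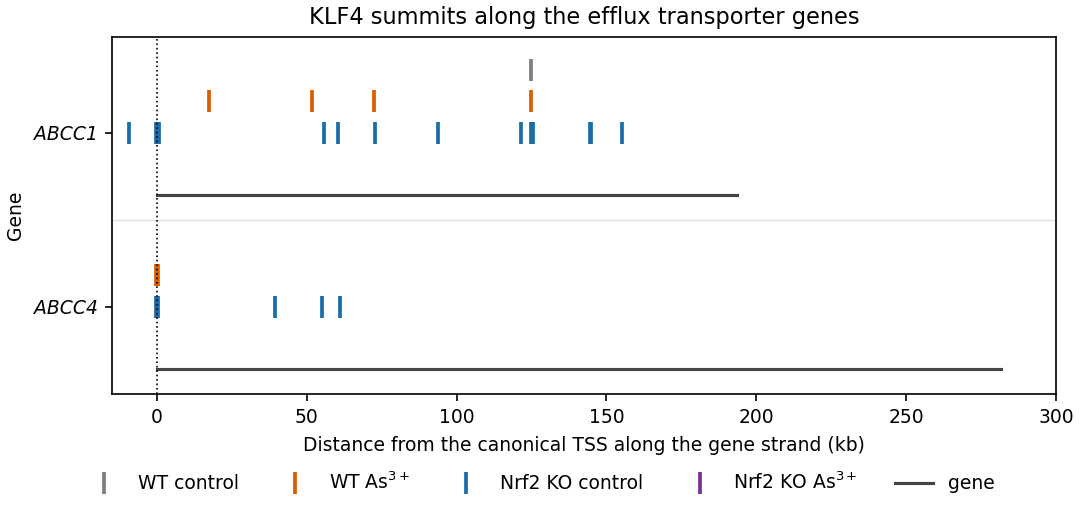
Summits of KLF4 peaks (ticks, 1 row and colour per library) along ABCC1 and ABCC4, by distance from the canonical TSS along the gene strand in kb, with a line for the extent of each gene. In ABCC1 the WT control, WT As3+ and Nrf2 KO control ticks meet near 124.9 kb and the Nrf2 KO control ticks also stand at the TSS, while in ABCC4 both WT As3+ ticks are at the TSS.

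ABCC4, the multidrug resistance protein that exports dimethylated and glutathione-bound arsenic, had a pair of promoter peaks in both long lists. The gene occupies 95019835 to 95301475 of chromosome 13, minus strand. The WT As3+ peaks, from 95300924 to 95301368 and from 95301592 to 95301949, had summits 328 bp downstream and 268 bp upstream of the TSS with 17 and 13 fragments and folds of 5.14 and 5.35. Both were overlapped by Nrf2 KO control peaks, with 9 fragments each and folds of 4.21 and 4.60. The Poisson intervals of the fragments, 9.90 to 27.2 and 6.92 to 22.2 in WT As3+ and 4.12 to 17.1 for each Nrf2 KO control peak, overlap. The backgrounds were 2.50 and 1.62 in WT As3+ and 1.37 and 1.17 in Nrf2 KO control. These intervals cover counting error only, with no scaling for depth. Untreated Nrf2 KO cells alone had 3 further ABCC4 peaks in introns 1 and 3, with 6 or 7 fragments and folds from 4.12 to 5.17. An ARE core 43 bp from the upstream Nrf2 KO control summit, at chr13:95301582-95301610 on the plus strand, was the only searched word in the 200 bp centred on these summits.
ABCC4 promoter ARE core: gaccgacgggTGACGCGGCgggaggagac

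Taking the genes together, the WT As3+ library had 14 peaks at them with folds from 3.44 to 6.59 and a median of 4.89, beside 4.72 for the whole list. For Nrf2 KO control there were 34, with folds from 3.29 to 8.30 and a median of 4.79, beside 4.69. Fragments over the summits ranged from 7 to 19 with a median of 13 in WT As3+, and from 5 to 16 with a median of 8 in Nrf2 KO control. Of the WT As3+ peaks, 9 of 14 lay within 2 kb of the TSS of any gene, beside 53.3% of the whole list, and 8 within 2 kb of that of one of the 10. For Nrf2 KO control these counts were 19 of 34, beside 35.6%, and 13. These shares are not like for like, since each of the 10 windows holds a TSS by the rule and the whole lists include peaks outside gene windows. Only 23550 of the 29870 WT As3+ and 56740 of the 76545 Nrf2 KO control peaks lay in windows of protein-coding genes. With −log10 q of at least 5, the peaks at the 10 genes numbered 6 of 14 in WT As3+ and 7 of 34 in Nrf2 KO control. In the whole lists 9522 of 29870 and 16160 of 76545 peaks reached this threshold.

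**Figure D5:**
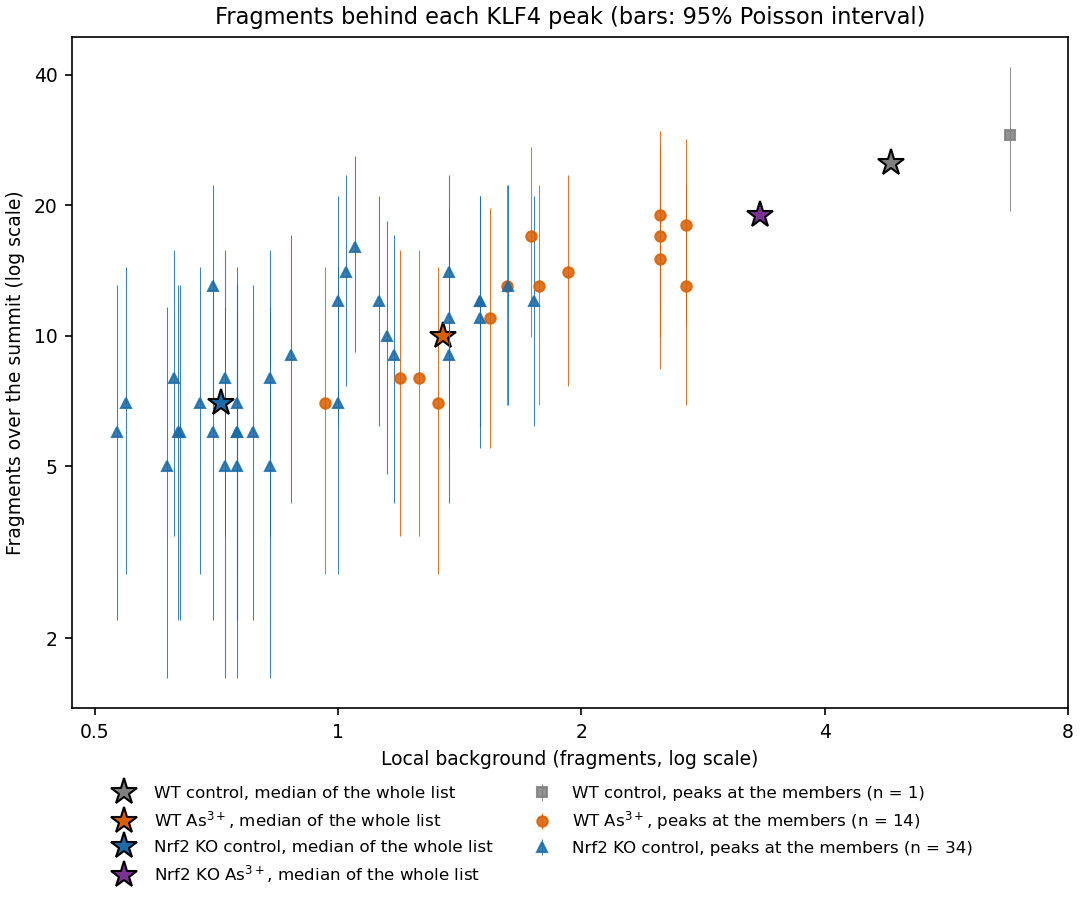
Fragments over the summit against the local background, both on log axes, for every peak at the 10 genes, with 95% Poisson intervals for counting error only as bars. Stars mark the medians of the whole lists, the Nrf2 KO control peaks reach down to 5 fragments, and the WT control peak stands at 29 on a background of 6.78.

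Of the 14 WT As3+ peaks, 10 overlapped a Nrf2 KO control peak by at least 1 bp, which is 71.4% (exact Clopper-Pearson limits at 95%, 41.9% and 91.6%, which cover counting error alone), beside 55.6% of all WT As3+ peaks. Of the 34 Nrf2 KO control peaks, 9 overlapped a WT As3+ peak, which is 26.5% (12.9% to 44.4%), beside 21.7% of all. The shared count depended on the threshold and on the measure. Among peaks of −log10 q of at least 5 in both lists, 1 of 6 WT As3+ peaks, the GSTP1 promoter peak, and 1 of 7 Nrf2 KO control peaks were shared, beside 50.8% and 29.8% of all such peaks. With summits within 200 bp of each other, 6 of the 14 WT As3+ peaks were shared, beside 37.4% of all. By overlap of at least 1 bp, without the stricter threshold, the shared promoters were those of AQP3, GSTO1, N6AMT1, GSTP1 and ABCC4. By that measure 4 WT As3+ peaks had no Nrf2 KO control peak. They were the upstream peak of N6AMT1, the intron 3 peak of AQP3 and both intron 1 peaks of ABCC1.

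Words were counted on both strands in the 200 bp centred on each summit. The AP-1 words TGACTCA and TGAGTCA, which are reverse complements of each other, occurred under 5 of the 14 WT As3+ summits, at N6AMT1, GSTP1, AQP3 and 2 ABCC1 introns, beside 4.33% of all WT As3+ summits. Under the Nrf2 KO control summits they occurred at 2 of 34, both at ABCC1, beside 2.54%. The KLF words CCACACCC and CCACGCCC occurred under 2 WT As3+ summits and 1 Nrf2 KO control summit, beside 10.3% and 9.27% of the whole lists. The ARE core TGACNNNGC, which can share letters with the AP-1 word, was found under 3 and 4 summits, beside 9.36% and 9.17%. The GC box CCCCGCCCC was found under 2 and 1, beside 7.76% and 4.61%. In the 100 bp centred on the summit the AP-1 words were under 3 of the 14, beside 1.99% of all WT As3+ summits.

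The 10 promoters spanned a wide range of base composition. In the 1 kb centred on the TSS their median GC content was 62.1%, beside 61.3% for all protein-coding genes, and the median ratio of observed to expected CpG was 0.715, beside 0.725. ABCC4 and ABCC1 had the highest GC content, 74.4% and 72.5%, and AQP9 and N6AMT1 the lowest, 40.2% and 48.4%. N6AMT1 nonetheless had a CpG ratio of 0.908, near the 0.912 of ABCC4. Among the 5659 protein-coding genes with a CpG ratio under 0.5, to which AQP9 belongs, 12.8% had a WT As3+ peak and 26.9% a Nrf2 KO control peak within 2 kb.

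The wider arsenic and glutathione pathway was covered by 21 further genes for other channels and transporters, methyl donor supply, arsenate reduction and glutathione and thioredoxin. Of the 21, 1 had a peak in WT control, 15 in WT As3+, 19 in Nrf2 KO control and 0 in Nrf2 KO As3+ cells. The shares of all protein-coding genes in such windows were 2.51%, 66.5%, 81% and 0.439%, in the same order. SLC34A2 and SLC7A11, a phosphate and a cystine transporter, had none in any list. The gene with a WT control peak was TXN, for thioredoxin, whose peak 308 bp upstream of the TSS had 19 fragments and a fold of 4.66 and overlapped peaks of both long lists. At the same promoter the WT As3+ peak had 19 fragments on a background of 1.27 and a fold of 8.81. The highest WT As3+ fold in this set was 9.49, in coding exon 1 of GCLM, a subunit of the enzyme that starts glutathione synthesis. In the Nrf2 KO control library it was 8.43, in intron 1 of SLC2A1, a glucose transporter.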

How the data were processed

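KLF4 ChIP-seq peak lists of 4 BEAS-2B libraries were analysed. Per the labels the authors aligned reads to GRCh38/hg38 with BWA, and the submitters' processing notes list bcl2fastq 2.17. Peaks were called separately in each library, and the caller is not given in the sources used here. The authors deposited, for each peak, the fold enrichment (a ratio), −log10 p and −log10 q at the summit, and a score of 10 times −log10 q.

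Fragments over a summit (n) and background (λ) were solved from fold = (n + 1)/(λ + 1) and an upper Poisson tail, and the solved −log10 p differed from the listed one by 0.000405 or less. Totals of reads were not used here, so depth is known only through these values. Genes came from GENCODE 44, and no peak lay past a chromosome end of the reference. Every gene of the set is named, as are, among the 21 further genes, those with a WT control or Nrf2 KO As3+ peak or the highest fold of a long list. SLC34A2 and SLC7A11 were named after their values were seen. Genes, lists and words were chosen with earlier results of these data known. No test was possible with 1 library per condition. Steps were tested on simulated data. Python 3.11.15, numpy 2.4.6, pandas 2.3.3, scipy 1.17.1 and matplotlib 3.10.9 were used. Alternatives covered thresholds, list lengths, windows and overlaps. The input libraries and those for H3K4me1 and H3K27Ac are not used here. The letters under 1 ABCC1 peak are not reported here.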

Additional observations from a re-analysis of the deposited data

Results flagged for a closer look

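The arsenic contrast ran in opposite directions in the 2 genotypes, and this difference was not tested, since each condition has 1 library. Over the 10 genes, WT cells went from 1 peak to 14 with As3+, a difference of 13, and Nrf2 KO cells from 34 to 0. The number of genes with a peak went up by 6 in WT cells, from 1 to 7, and from 9 to 0 in Nrf2 KO cells. Of all protein-coding genes, 64% had a WT As3+ peak and no WT control peak. A Nrf2 KO control peak with no Nrf2 KO As3+ peak was found at 80.6%. The opposite signs in the 2 genotypes were also seen gene by gene. ABCC1 gained 3 peaks in WT cells and went from 14 to 0 in Nrf2 KO cells. GSTP1, ABCC4, AQP3 and N6AMT1 gained 2 each in WT cells, where the Nrf2 KO lists went from 4, 5, 2 and 1 to 0 in the same order. GSTO1 and PNP gained 1 each in WT cells and went from 4 and 2 to 0 in Nrf2 KO cells. These counts include peaks at the starts of neighbouring genes. The WT As3+ peak in the PNP window lay 57 bp from the TSS of PIP4P1, where a Nrf2 KO control peak overlapped it. Nrf2 KO control peaks in the GSTO1 window lay 118 and 494 bp from the TSS of CFAP43 and 90 bp from that of GSTO2. AS3MT and GSTO2 had no peak in either WT list. The lengths of the whole lists differ between these libraries in the same directions.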

How the results depend on the processing

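No paired analysis was possible because each condition has 1 library and no result comes from a test. Of 154 recomputed values, 118 did not move, which for a count means within 1.5 times of the reported one. Part of the 118 could not move, so this number does not measure stability. A Nrf2 KO As3+ count of 0 stays 0 in any stricter or shorter list. A cut to 29870 peaks leaves the WT control, WT As3+ and Nrf2 KO As3+ lists as they were. The causes of the other changes were not tested, except that stricter or shorter lists hold fewer peaks by construction. At −log10 q of at least 5 the whole lists held 9522 WT As3+ and 16160 Nrf2 KO control peaks. With −log10 q of at least 5, peaks at the 10 genes numbered 6 in WT As3+ and 7 in Nrf2 KO control, genes with a Nrf2 KO control peak and no WT control peak 5 (49.8% of all protein-coding genes), genes in both long lists 2 (29.7%), genes with a Nrf2 KO control and no WT As3+ peak 4 (21.3%), promoters with a Nrf2 KO control peak 4 (38.5%, with 4 also in WT As3+, 28.6%), shared peaks 1 in each direction between the long lists and 0 between WT As3+ and WT control, and the further genes with a WT control peak 0. With each list cut to the 130 strongest peaks by −log10 p, peaks and genes with a peak were 0 in every library and comparison, for the 10 genes, their promoters and the further genes. Lists this short reach few genes. The Nrf2 KO As3+ list, with 130 peaks uncut, had a peak in the window of 0.439% of all protein-coding genes and at the TSS of 0.195%. Shares for the other lists at this length are not given here. With the Nrf2 KO control list cut to the 29870 strongest, 17 peaks were left at the 10 genes, and 9 genes still had one (background 65.3%). With summits within 200 bp as the measure of sharing, 6 WT As3+ peaks were shared with Nrf2 KO control. In 100 bp round the summit, the KLF words were under 1 WT As3+ and 0 Nrf2 KO control summits (5.69% and 5.00% of all) and the AP-1 words under 3 and 1 (1.99% and 1.16%). In whole Nrf2 KO control peaks, the GC box was in 3 and the ARE core in 8 (8.90% and 15.0% of all). In 500 bp centred on the TSS the median GC content was 66.4%, and no value for all protein-coding genes at this width is given here.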

Other observations

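Peak density over the merged windows of the 10 genes, 0.771 Mb in all, was 18.2 peaks per Mb in the WT As3+ and 44.1 in the Nrf2 KO control library, beside 16.3 and 39.2 over the windows of all protein-coding genes. Peaks of other genes fell into the windows through close neighbours, namely PIP4P1 at PNP and CFAP43 at GSTO1. The nearest WT control peak to a TSS of the 9 genes without one was 216.592 kb from GSTP1 and at most 6735.78 kb away, from GSTO2. In the Nrf2 KO As3+ library the nearest of all was 125.87 kb from AS3MT, with 29 fragments and a fold of 5.55.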
